A study of Mus musculus with 16 samples.

Results

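The genes described here are 10 that mark endothelium or carry 2 vascular signals, the angiopoietins and apelin: Pecam1, Cdh5, Tie1, Tek, Angpt1, Angpt2, Apln, Aplnr, Plvap and Esm1. They were taken by symbol from the 55492 genes of the deposited table, and all 10 were found and passed the minimum mean of 10 normalized counts over the 16 libraries. RNA was extracted from left ventricles of male C57BL/6 mice aged 8 to 12 weeks, depleted of rRNA and sequenced. The PKM2fl/fl mice carried loxP-flanked exon 10 of Pkm, the exon of the PKM2 isoform of pyruvate kinase, and served as controls. The PKM2-/- mice were global knockouts, made by germline deletion of exon 10 with CMV-Cre, and were bred until the Cre allele was gone. Each genotype had 2 unoperated hearts (baseline), 3 hearts taken 3 days after sham surgery, and 3 hearts taken 3 days after myocardial infarction (MI) by permanent ligation of the left anterior descending artery. Every library was labelled as a heart of its own. The labels do not say which region of an infarcted ventricle, scar or remote muscle, was sampled.

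Endothelial cells line every vessel of the heart and are held together by adhesion molecules such as PECAM1 and VE-cadherin. Angiopoietin-1 from cells outside the endothelium activates the receptor TIE2 (Tek) and keeps vessels quiet and tight, angiopoietin-2 from the endothelium competes for the same receptor and loosens them, and TIE1 modulates TIE2. Apelin is a peptide made by sprouting endothelium that acts through the receptor APLNR, and Esm1 and Plvap are known from tip cells and from leaky or growing vessels. The comparisons ask how these genes differed after infarction, and whether they differed between hearts with and without PKM2.

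At 3 days after MI the apelin genes, Angpt2, Plvap and Esm1 were higher, the identity genes Pecam1, Cdh5, Tie1 and Tek differed by less than 2-fold, and Angpt1 was lower. In both genotypes Apln, Aplnr, Angpt2, Plvap and Esm1 rose by 2-fold or more, from 2.60-fold for Plvap in PKM2fl/fl to 8.24-fold for Apln in PKM2-/-. Angpt1 fell in both, and after MI it was lower in PKM2-/- than in PKM2fl/fl hearts, the only member that passed the test between the genotypes, in a call that was lost under several alternatives. The plot of normalized counts by library shows these values. The Esm1 counts are not separable from those of Gzmk, a gene over it on the opposite strand.

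**Figure D1:**
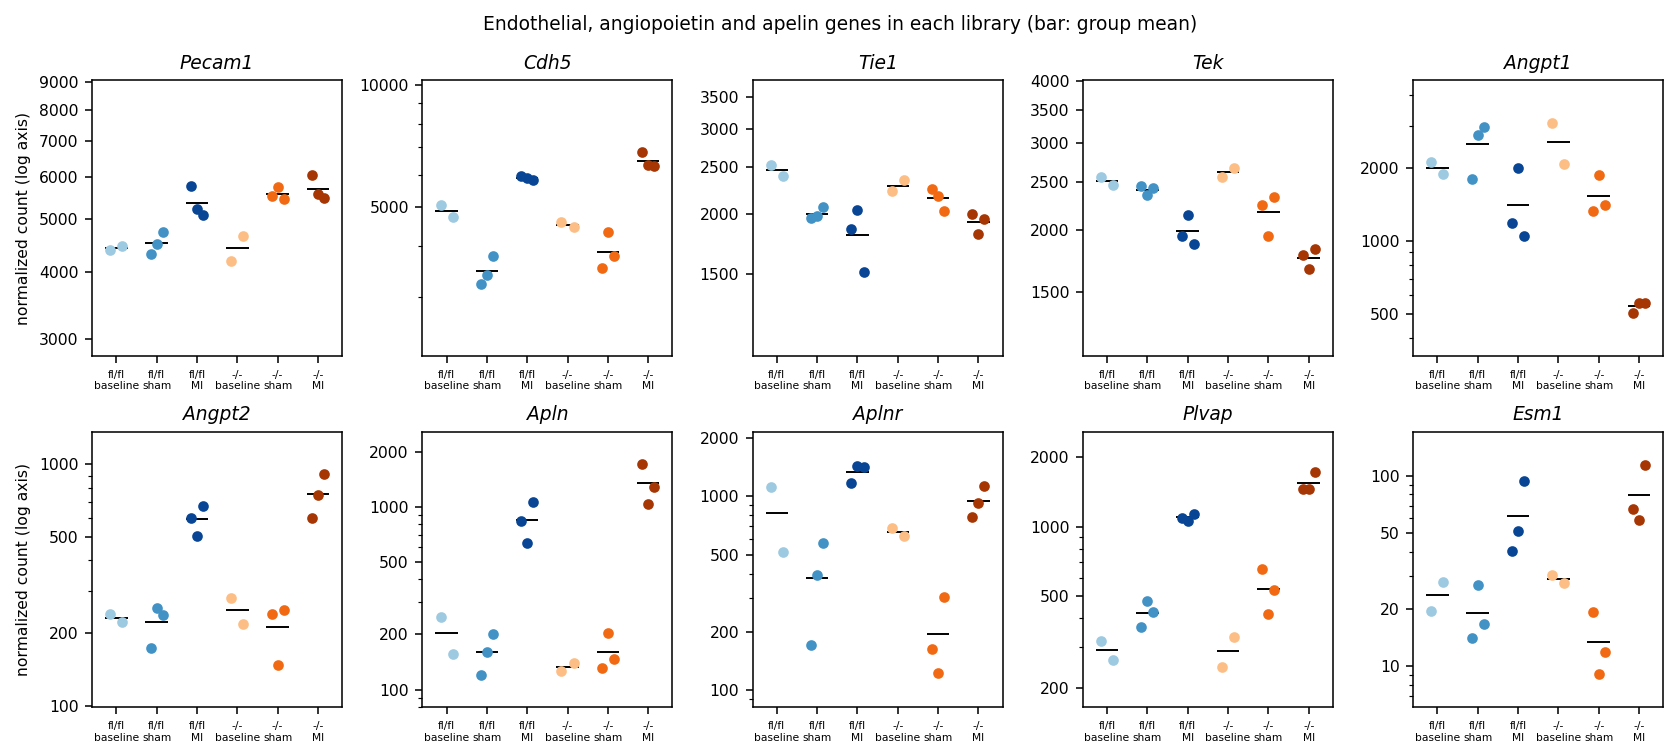
Normalized counts of the 10 genes (vertical log axes) in each of the 16 libraries, by genotype and treatment. Points are single hearts and bars are group means. Apln, Aplnr, Angpt2, Plvap and Esm1 lie higher after MI than after sham in both genotypes, and Angpt1 in the 3 PKM2-/- hearts after MI (505 to 557) lies below all other libraries. The Esm1 values may hold Gzmk reads.

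Positions are those of RefSeq on GRCm38, the assembly behind the mm10 genome that the reads were aligned to. Pecam1 is at chr11:106654213-106715281, Cdh5 at chr8:104101613-104144504, Tie1 at chr4:118471191-118489849 and Tek at chr4:94739086-94874976. Angpt1 is at chr15:42424667-42676977 and Angpt2 at chr8:18690263-18741562, and the apelin ligand and receptor genes are at chrX:48025146-48034853 and chr2:85136360-85139923. Plvap lies at chr8:71497753-71511806 and Esm1 at chr13:113209659-113218104, and counts were taken over whole genes.

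For 4 of the 10 genes, Tek, Tie1, Esm1 and Apln, RefSeq's promoter table on GRCm38.p6 held the window from 250 bases before to 50 bases after the start. The promoters of Apln, the gene with the largest rise, and of Tie1, which did not pass the test after MI in either genotype, are printed 5′ to 3′ on the strand of the gene, with each GGAA or its reverse complement in capitals. GGAA is the core letters bound by ETS factors, a family that includes the endothelial regulators ERG and FLI1. The Apln window is chrX:48034804-48035103 (minus strand) and the Tie1 window chr4:118489800-118490099 (minus strand).
Apln promoter: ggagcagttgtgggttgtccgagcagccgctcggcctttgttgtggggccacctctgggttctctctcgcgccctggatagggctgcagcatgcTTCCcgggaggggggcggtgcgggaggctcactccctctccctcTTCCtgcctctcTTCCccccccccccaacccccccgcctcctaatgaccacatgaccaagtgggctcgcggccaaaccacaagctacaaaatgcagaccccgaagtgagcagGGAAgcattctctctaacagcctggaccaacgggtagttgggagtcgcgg
Tie1 promoter: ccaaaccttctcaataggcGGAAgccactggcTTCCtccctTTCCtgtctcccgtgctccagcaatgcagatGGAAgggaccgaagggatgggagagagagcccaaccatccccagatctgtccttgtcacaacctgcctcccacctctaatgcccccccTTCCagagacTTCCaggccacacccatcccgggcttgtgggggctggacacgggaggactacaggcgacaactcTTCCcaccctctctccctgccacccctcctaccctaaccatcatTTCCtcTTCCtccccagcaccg
GGAA was found 9 times on both strands of the Tie1 window, 4 times in those of Apln and Esm1 and 2 times in that of Tek. Of 32851 promoter windows of the same length, 96.0% held at least 1 GGAA, with a median of 3, and 1.59% held 9 or more. The letters ACGTG, 1 form of the core of the hypoxia response element, were searched on both strands. They were in none of the 4 windows, against 19.6% of all windows. The other form, GCGTG, was not searched, so the windows may hold that core.

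The libraries held 20623769 to 71855101 reads in genes, and values are given as normalized counts, the authors' read counts after division by a DESeq2 size factor. Differences were tested with limma-trend on log2(normalized count + 1) over 20576 genes. A gene "passed" at a Benjamini-Hochberg adjusted p below 0.05 and was "called" if it also changed by 2-fold or more. Pkm, counted over both isoforms, had 7779 to 9602 normalized counts in PKM2fl/fl and 11710.1 to 14242 in PKM2-/- hearts at baseline and after sham, and gene counts cannot show the loss of exon 10. The rRNA locus CT010467.1 took 0.111% to 25.1% of the reads of a library and differed within groups: among the PKM2fl/fl hearts after MI it took 25.1%, 1.72% and 23.0%, and in the PKM2-/- hearts after MI 2.13%, 15.5% and 17.4%. It also moved with genotype, at 0.256% and 0.494% in PKM2fl/fl against 8.25% and 7.63% in PKM2-/- at baseline, and at 0.111% to 1.39% against 4.14% to 15.01% after sham, without overlap. Its part in the results was not tested. In RNA from left ventricle tissue, fewer endothelial cells and less RNA per cell cannot be told apart.

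Between genes, levels were compared as normalized counts per kilobase of annotated exon (GENCODE M39, all isoforms joined). In PKM2fl/fl hearts at baseline Cdh5 had the highest level per kilobase, 1115 ± 52.6 (SD, n = 2), followed by Tie1 at 493 ± 18.3, Pecam1 at 442 ± 5.36 and Tek at 419 ± 11.3. Angpt1 at 279 ± 22.5 and Aplnr at 221 ± 115 followed, and their spreads overlapped. Plvap (75.85 ± 10.3), Apln (53.7 ± 17.7) and Angpt2 (48.4 ± 2.66) were lower, the last pair not differing beyond their spread, and Esm1 was lowest at 10.5 ± 2.57. After MI in PKM2-/- hearts the order had changed: Plvap reached 402 ± 40.0 (SD, n = 3) and Apln 354 ± 90.7 per kilobase, within their spread of Tie1 at 384 ± 19.5, while Angpt1 had gone to 75.05 ± 4.11, below Angpt2 at 157 ± 32.3.

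The 2 junction genes were measured first. Pecam1 encodes CD31, an adhesion molecule of all endothelium that platelets and leukocytes also carry. In PKM2fl/fl hearts it had 4385 and 4460.35 normalized counts at baseline, 4313, 4504 and 4737 after sham, and 5766, 5237 and 5097 after MI. In PKM2-/- hearts it had 4179 and 4662 at baseline, 5529, 5753 and 5456 after sham, and 6049.9, 5570.5 and 5488 after MI. All 3 PKM2fl/fl hearts after MI lay above all sham hearts, whereas in PKM2-/- hearts sham and MI overlapped. Pecam1 rose by a log2 fold change of 0.25 (SE 0.09, limma-trend adjusted p = 0.026) with MI in PKM2fl/fl, and its log2 difference was 0.03 (SE 0.09, adjusted p = 0.78) in PKM2-/-. The first passed in 10 of 17 alternatives. It was lost under total read scaling (log2 0.07, adjusted p = 0.90), with no filter on low values (0.064), in a fit of only the groups compared (0.11), with edgeR on the recovered reads (0.054), and without PKM2fl/fl sham heart 1 or 2 or MI heart 1 (0.098, 0.064 and 0.098).

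Cdh5 encodes VE-cadherin, the adhesion protein of the endothelial junction. It stood at 5048 and 4722 normalized counts in PKM2fl/fl hearts at baseline, at 3221, 3396 and 3792 after sham, and at 5949.8, 5874 and 5812 after MI. The PKM2-/- hearts had 4584 and 4453 at baseline, 3527, 4329 and 3786 after sham, and 6829, 6341 and 6289.9 after MI. In both genotypes the sham hearts were the lowest and the MI hearts the highest, with no overlap. Cdh5 rose with MI by 0.76 on the log2 scale in PKM2fl/fl (SE 0.09, adjusted p = 1.2e-05) and by 0.75 in PKM2-/- (SE 0.09, adjusted p = 9.4e-06), which is below 2-fold. Under total read scaling the first did not pass (log2 0.59, adjusted p = 0.15), and the second was above 2-fold under that scaling (log2 1.26) and with rRNA loci left out of the totals (log2 1.09). Against baseline the sham hearts were lower by a log2 difference of -0.50 in PKM2fl/fl (adjusted p = 0.077) and -0.22 in PKM2-/- (adjusted p = 0.27), neither of which passed.

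Tie1 and Tek, the 2 receptors of the angiopoietin pathway, were lower after MI or within the spread. Tie1 had 2531 and 2401 normalized counts at baseline, 1959.9, 1979 and 2066 after sham, and 1857, 2036 and 1515 after MI in PKM2fl/fl hearts. In PKM2-/- hearts the counts were 2227 and 2353, then 2252, 2178 and 2026, and then 1999, 1811 and 1949. The groups overlapped in PKM2fl/fl and were just apart in PKM2-/-, and the log2 differences of -0.16 (SE 0.10) in both did not pass (adjusted p = 0.19 and 0.17).

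Tek had 2562 and 2466 normalized counts at baseline, 2459, 2361 and 2432 after sham, and 1949, 2148 and 1879 after MI in PKM2fl/fl hearts. Its counts in PKM2-/- hearts were 2569 and 2679, then 2247, 1952 and 2339.9, and then 1783, 1675 and 1832. Every MI heart lay below every sham heart of its genotype. Tek fell by 0.28 on the log2 scale in PKM2fl/fl (SE 0.09, adjusted p = 0.014) and by 0.30 in PKM2-/- (SE 0.09, adjusted p = 0.0077), a decrease that turned to 0.21 under total read scaling and to 0.05 when rRNA loci were left out of the totals in PKM2-/- hearts. In PKM2fl/fl Tek passed in 14 of 17 alternatives, and not under either scaling (adjusted p = 0.26 and 0.37) or in a fit of only the groups compared (0.053). The same 2 scalings turned the log2 difference of Tie1 in PKM2-/- hearts to 0.35 and 0.19. The Tie1/Tek log2 ratio within a library differed between MI and sham by 0.12 in PKM2fl/fl and 0.14 in PKM2-/-, with overlapping groups (exact permutation p = 0.075, adjusted 0.0938).

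Of the ligands, Angpt1 fell. This agonist of TIE2 is known from mural cells and other cells around the endothelium, cardiomyocytes included. PKM2fl/fl hearts had 2122 and 1893 normalized counts at baseline, 1804, 2757 and 2971 after sham, and 1186, 2016 and 1054 after MI. PKM2-/- hearts had 3077 and 2078 at baseline, 1334, 1871 and 1414 after sham, and 505, 557 and 555 after MI. In PKM2-/- the MI hearts were far below the rest and close to each other, while in PKM2fl/fl the MI heart 2 lay above the lowest sham heart. Angpt1 fell with MI, with log2 fold changes of -0.85 in PKM2fl/fl (SE 0.23, adjusted p = 0.0065) and -1.50 in PKM2-/- (SE 0.23, adjusted p = 5.9e-05), the latter 2.82-fold.

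Angpt2, the antagonist that endothelium releases when activated, moved the other way. Its normalized counts in PKM2fl/fl hearts were 241 and 223 at baseline, 174, 255 and 237 after sham, and 598, 505 and 676 after MI. Those of PKM2-/- hearts were 279 and 218, then 239.5, 148 and 248, and then 602, 744 and 912. The MI hearts of both genotypes were above all sham and baseline hearts. Angpt2 rose 2.68-fold in PKM2fl/fl (log2 1.42, SE 0.21, adjusted p = 6.0e-05) and 3.59-fold in PKM2-/- (log2 1.84, SE 0.21, adjusted p = 4.0e-06).

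The ratio of both ligands within a library does not depend on its size factor. Angpt2 per Angpt1 was 0.114 and 0.118 in PKM2fl/fl hearts at baseline, 0.0964, 0.0923 and 0.07985 after sham, and 0.505, 0.25 and 0.6415 after MI. In PKM2-/- hearts it was 0.0905 and 0.105 at baseline, 0.1795, 0.0789 and 0.175 after sham, and 1.19, 1.34 and 1.64 after MI. All 3 PKM2-/- hearts after MI thus had more Angpt2 than Angpt1 counts, and all other hearts had fewer. The mean log2 ratio rose by 2.27 in PKM2fl/fl and by 3.34 in PKM2-/-, with no overlap of sham and MI in either. The exact permutation test over MI and sham labels within genotype (two-sided, n = 3 per group) gave p = 0.005, the smallest that its 400 arrangements allow, and 0.0125 adjusted over 5 ratios. Whether the rise of the ratio differed between genotypes was not tested.

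**Figure D2:**
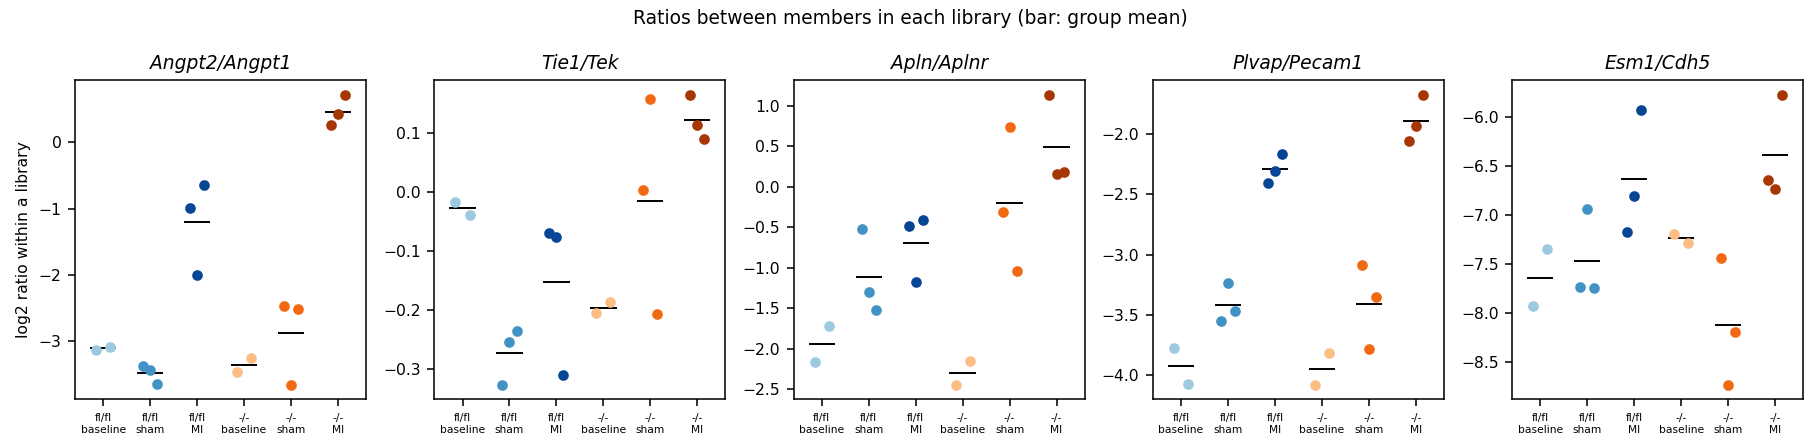
Log2 ratios between 2 of the genes within each library (vertical axes), by genotype and treatment. Points are single hearts and bars are group means. The Angpt2/Angpt1 ratio is above 0 only in the 3 PKM2-/- hearts after MI, and Plvap/Pecam1 is higher in every MI heart than in every sham heart of its genotype.

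The apelin pair rose together. Apln, the ligand, had 250.4 and 156 normalized counts in PKM2fl/fl hearts at baseline, 119.85, 160.1 and 200.5 after sham, and 839, 635 and 1055 after MI. In PKM2-/- hearts it had 126 and 139, then 132, 205 and 147, and then 1712, 1035 and 1275. The lowest MI heart, at 635, was well above the highest of the other hearts, at 250.4. Apln rose 5.24-fold in PKM2fl/fl (log2 2.39, SE 0.25, adjusted p = 3.1e-06) and 8.24-fold in PKM2-/- (log2 3.04, SE 0.25, adjusted p = 2.6e-07), the largest change of the 10 genes in each genotype.

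Aplnr, the apelin receptor, was the member with the widest spread between the sham hearts of a genotype. PKM2fl/fl hearts had 1120.1 and 516 normalized counts at baseline, 172, 395 and 575 after sham, and 1170.2, 1435 and 1407 after MI. PKM2-/- hearts had 690.0 and 621 at baseline, 164, 123 and 302 after sham, and 779, 929 and 1125 after MI. Sham hearts were low in both genotypes, and 1 PKM2fl/fl baseline heart was close to the MI hearts. Aplnr rose from sham to MI by 3.91-fold in PKM2fl/fl (log2 1.97, SE 0.39, adjusted p = 0.00062) and 5.09-fold in PKM2-/- (log2 2.35, SE 0.39, adjusted p = 0.0001). From baseline to sham it fell by 1.84 on the log2 scale in PKM2-/- (SE 0.43, adjusted p = 0.024), so that the rise over sham started from a lower level than that of unoperated hearts. That call was lost without PKM2-/- baseline heart 1 or 2 (adjusted p = 0.14 and 0.11), without PKM2-/- sham heart 1 or 2 (0.074 and 0.083), and with limma-voom (0.099). The log2 difference from baseline to sham in PKM2fl/fl, -1.16 (SE 0.43), did not pass (adjusted p = 0.38). The Apln/Aplnr log2 ratio differed between MI and sham by 0.42 in PKM2fl/fl and 0.70 in PKM2-/- (exact permutation p = 0.145, also after adjustment), with overlapping groups.

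Plvap encodes a protein of the diaphragms of fenestrae and caveolae and is also a marker of endocardium. It had 319 and 263 normalized counts in PKM2fl/fl hearts at baseline, 366, 477 and 426 after sham, and 1089.8, 1058 and 1138 after MI. The PKM2-/- hearts had 246 and 329.9, then 651, 418 and 532, and then 1454, 1456 and 1721. The steps from baseline to sham and from sham to MI were both without overlap in each genotype. With MI Plvap rose 2.60-fold in PKM2fl/fl (log2 1.38, SE 0.16, adjusted p = 6.9e-06) and 2.93-fold in PKM2-/- (log2 1.55, SE 0.16, adjusted p = 1.5e-06). From baseline to sham it rose by 0.88 on the log2 scale in PKM2-/- (SE 0.18, adjusted p = 0.011), which was lost without PKM2-/- baseline heart 1 (adjusted p = 0.14), under total read scaling (0.065) and in a fit of only the groups compared (0.053), and its difference in PKM2fl/fl was 0.53 (SE 0.18, adjusted p = 0.29). Relative to Pecam1 the log2 ratio was higher after MI by 1.13 and 1.52 (exact permutation p = 0.005, adjusted 0.0125).

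Esm1 encodes endocan, a secreted proteoglycan of endothelial tip cells, and had the fewest counts. PKM2fl/fl hearts had 19.6 and 27.9 normalized counts at baseline, 14.1, 26.7 and 16.7 after sham, and 40.2, 51.4 and 94.2 after MI. PKM2-/- hearts had 30.3 and 27.5, then 19.3, 9.14 and 11.9, and then 67.3, 58.4 and 114. MI hearts were above all others in both genotypes. Esm1 rose 3.03-fold in PKM2fl/fl (log2 1.60, SE 0.38, adjusted p = 0.0027) and 5.61-fold in PKM2-/- (log2 2.49, SE 0.38, adjusted p = 5.5e-05). Its reads are not separable from those of Gzmk, the gene of granzyme K, which lies over it on the opposite strand: Gzmk had 0 to 7 reads more than Esm1 in each of the 16 libraries and the same number in 5. Counts without strand cannot tell these genes apart, so the Esm1 values may hold Gzmk reads. No other gene had counts within 8 reads or 5% of a member in all 16 libraries. Other members also have counted genes over them on the opposite strand. Mcph1 over Angpt2 had 298 to 2351 reads, 179 to 1179 more than Angpt2. Gtpbp3 over Plvap had 233 to 1039, Gm17473 over Angpt1 41 to 499 and Gm29682 over Cdh5 85 to 378. Whether reads of these genes enter the members' values was not tested. The Esm1/Cdh5 log2 ratio was higher after MI by 0.84 and 1.74 (exact permutation p = 0.01, adjusted 0.0167), with overlap of sham and MI in PKM2fl/fl only.

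Over the 10 genes, MI against sham in PKM2fl/fl called 5 higher and 0 lower, where 12.4% of all genes tested were called higher and 11.1% lower. In PKM2-/- it called 5 higher and 1 lower (Angpt1), against 14.5% and 14.3% of all genes. With the adjusted p alone, 9 of 10 passed in PKM2fl/fl and 8 of 10 in PKM2-/-, against 50.1% and 56.8% of all genes, and sham and MI did not overlap for 8 and 9 of 10, against 59% and 62.3%. The median log2 fold change was 1.07 in PKM2fl/fl and 1.15 in PKM2-/-, and 0.00 and 0.01 over all genes. Apln, Aplnr, Angpt2, Plvap and Esm1 were called higher in both genotypes under each of 17 alternatives. The 10 genes were chosen with earlier results of these data known. The shares of all genes beside their counts are therefore given for scale and test nothing.

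**Figure D3:**
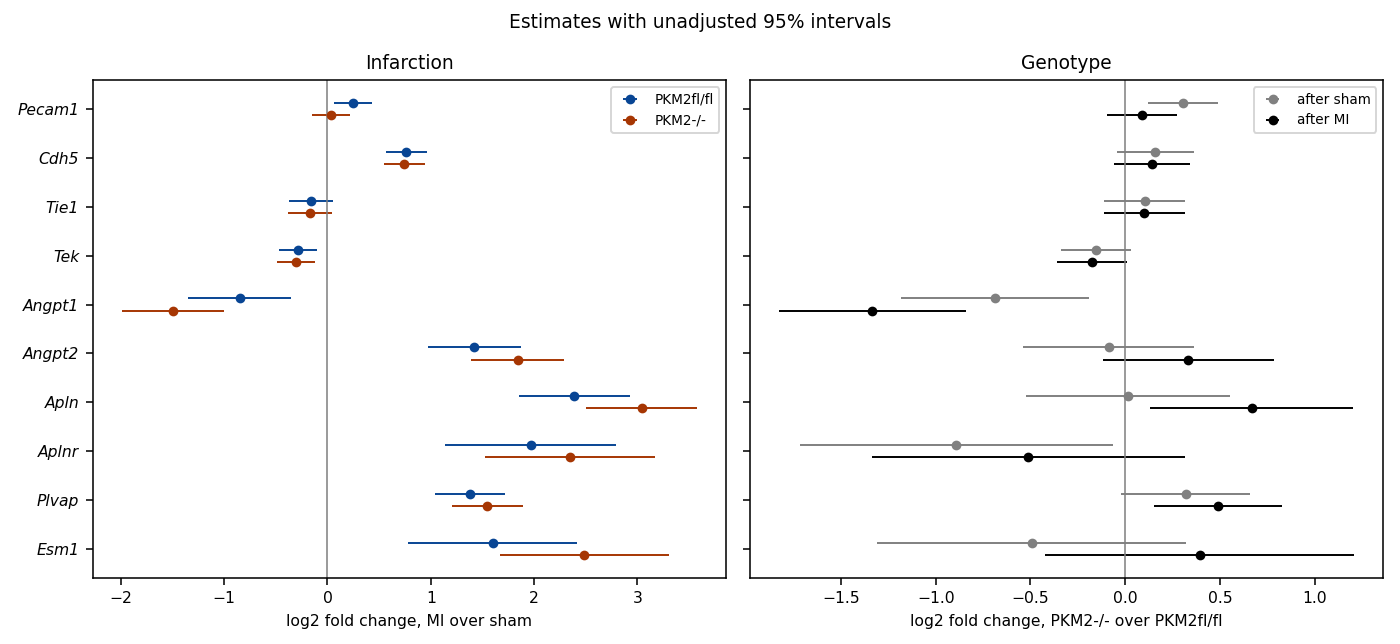
Log2 fold changes of the 10 genes with unadjusted 95% intervals from limma-trend: MI over sham in each genotype (left) and PKM2-/- over PKM2fl/fl after sham and after MI (right). On the left the genotypes move the same way, except that the interval of Pecam1 in PKM2-/- and those of Tie1 span 0, and on the right Angpt1 after MI, at -1.34, is farthest from 0.

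Between genotypes, 0 of 10 genes passed at baseline and after sham, where 0.00972% of all genes tested were called at baseline and 0.00486% after sham. At an unadjusted p below 0.05 there were 0 members at baseline and 3 after sham, against 748 and 2047 of all 20576 genes. DESeq2 on the recovered reads passed 0 at baseline and 1, Pecam1, after sham (adjusted p = 0.018), and edgeR passed 0 in both. Pecam1 was higher in all 3 PKM2-/- sham hearts than in the PKM2fl/fl ones, by a log2 difference of 0.30 (SE 0.09, limma-trend adjusted p = 0.21) that was -0.02 under total read scaling. Angpt1 and Aplnr had the largest differences after sham, -0.69 (SE 0.23, adjusted p = 0.29) and -0.89 (SE 0.39, adjusted p = 0.46), with overlapping groups. With 2 or 3 hearts a group, differences of this size did not pass, which does not show that the genotypes were alike.

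After MI, Angpt1 was 2.52-fold lower in PKM2-/- than in PKM2fl/fl hearts, by -1.34 on the log2 scale (SE 0.23, 95% interval -1.83 to -0.84, adjusted p = 0.025). It was the 1 member called, where 0.258% of all genes were called lower and 0.413% in either direction. The groups did not overlap for 5 of 10 members, against 18.9% of all genes: Cdh5 and Plvap were higher, and Angpt1, Aplnr and Tek lower, in every PKM2-/- heart after MI. Only Angpt1 of these passed. The adjusted p of Angpt1 was above 0.05 without PKM2fl/fl MI heart 1 (0.062) or 2 (0.08) and without PKM2-/- MI heart 1 (0.086), 2 (0.06) or 3 (0.074), when fitted on these 2 groups alone (0.14), and under total read scaling (log2 -0.97, adjusted p = 0.19). With DESeq2 on the recovered reads it was 1.0e-05. Plvap was higher by 0.49 (SE 0.16, adjusted p = 0.13, and 0.046 with DESeq2) and Apln by 0.67 (SE 0.25, adjusted p = 0.19).

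Whether MI changed a gene by a different amount in PKM2-/- was tested as an interaction, and 0 of 10 genes passed. No member had an unadjusted p below 0.05 with limma-trend or edgeR and 1 did with DESeq2, and over all genes 0% were called by limma-trend, with 1703 of 20576 at an unadjusted p below 0.05. DESeq2 called 13 genes higher and 21 lower over all genes. Without PKM2fl/fl MI heart 3, limma-trend called 32 genes higher and 195 lower, with 3499 at an unadjusted p below 0.05, and 4 of the 10 members were below 0.05 unadjusted but 0 passed. The estimates were -0.65 for Angpt1 (95% interval -1.35 to 0.05), 0.65 for Apln (-0.11 to 1.41), 0.89 for Esm1 (-0.27 to 2.04) and 0.42 for Angpt2 (-0.22 to 1.06). Those of Cdh5 (-0.30 to 0.27), Tie1 (-0.30 to 0.30) and Tek (-0.28 to 0.24) had narrower intervals around 0. The MI effects in each genotype, the genotype effects and this difference use the same sham and MI libraries and are not independent of each other.

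Surgery alone, sham against baseline, called 0 members in PKM2fl/fl, where 0.17% of all genes were called. An unadjusted p below 0.05 was found for 1813 of all 20576 genes and for 4 members. DESeq2 passed 1 of these, Cdh5 (adjusted p = 0.00077), and edgeR 0. In PKM2-/- it called 1 lower, Aplnr, against 0.608% of all genes, and Plvap passed below 2-fold, where 5.14% of all genes passed. The groups were apart for 4 members in PKM2fl/fl and 7 in PKM2-/-, against 32.5% and 34.5% of all genes. Each of these comparisons had only 2 baseline hearts.

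Among 24 other genes of endothelial identity, 2 were called higher and 3 lower with MI in each genotype, where 12.4% and 14.5% of all genes were called higher and 11.1% and 14.3% lower, which is near the list's own shares. Their median log2 fold change was 0.09 in PKM2fl/fl and 0.07 in PKM2-/-. Cd93, a lectin-like receptor of endothelium and some leukocytes, rose from 2327 ± 320 to 6497 ± 665 normalized counts in PKM2fl/fl (SD, n = 3; log2 1.49, adjusted p = 1.0e-06). The genes called lower included Car4, a carbonic anhydrase of capillaries, and Rgcc, with log2 fold changes of -2.20 and -1.46 in PKM2fl/fl and of -2.03 and -1.48 in PKM2-/-. Summed over the list, the level was 36803 to 40817 normalized counts after sham and 39061 to 40865 after MI in PKM2fl/fl, and 40701 to 41740.2 and 42215 to 43529 in PKM2-/-. These sums hold abundant genes that moved in opposite directions: Aqp1, a water channel named here after its value was seen, was the other gene called lower, with log2 fold changes of -1.33 in PKM2fl/fl and -1.50 in PKM2-/-.

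Of 11 other tested genes of the angiopoietin and apelin pathways, 2 were called higher and 2 lower in PKM2fl/fl, and 1 and 2 in PKM2-/-. Of all genes, 12.4% were called higher and 11.1% lower in PKM2fl/fl, and 14.5% and 14.3% in PKM2-/-. Dok2, an adaptor that binds activated TIE2 and is also expressed in leukocytes, rose by 1.17 and 1.55 on the log2 scale. Mme, which encodes the peptidase neprilysin, fell, with log2 fold changes of -1.25 in PKM2fl/fl and -1.69 in PKM2-/-. Apela, which encodes the other ligand of APLNR, was at 0 in all hearts of 4 of the 6 groups and was not tested.

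Of 12 other genes of tip cells and sprouting, 8 were called higher in PKM2fl/fl and 9 in PKM2-/-, against 12.4% and 14.5% of all genes. Of the 12 genes, 0 were called lower, against 11.1% and 14.3% of all genes. The list was chosen with earlier results of these data known, so the shares are given for scale and test nothing. The median log2 fold change of the list was 1.32 and 1.39. Col4a1, Col4a2 and Lama4, named here after their values were seen, held most of the summed level of this list. In PKM2fl/fl they went from means of 8745, 6814 and 3312 normalized counts after sham to 19360, 13060 and 5943 after MI. Mcam, an adhesion molecule of endothelium and mural cells, went from 504 ± 41.7 to 2203 ± 284 normalized counts in PKM2fl/fl (SD, n = 3) and from 683 ± 198 to 2875 ± 482 in PKM2-/-. Cxcr4, the receptor of CXCL12 in tip cells and in leukocytes, rose by 2.24 and 2.37 on the log2 scale, and Kcne3, a potassium channel subunit, by 1.62 and 3.13 from 12.5 ± 1.67 and 7.01 ± 7.52 counts. Between genotypes after MI, 0 genes of these 3 lists passed with limma-trend.

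Markers of other cells moved with these results, and their part in them was not tested. The summed level of 10 cardiomyocyte genes was 1.11e+06 to 1.25e+06 normalized counts after sham and 208937 to 486209 after MI in PKM2fl/fl. In PKM2-/- it was 1.01e+06 to 1.21e+06 and 218461 to 299641. Of these genes, 9 and 10 of 10 were called lower, against 11.1% and 14.3% of all genes. Beside the Angpt1 difference after MI, the cardiomyocyte sums were 486209, 473569 and 208937 in PKM2fl/fl hearts 1 to 3 and 299641, 222876 and 218461 in PKM2-/- hearts. Angpt1 in the same hearts had 1186, 2016 and 1054 normalized counts in PKM2fl/fl and 505, 557 and 555 in PKM2-/-. How these values relate was not tested.

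The 8 mural cell genes summed to 21712 to 23340 normalized counts after sham and to 10862 to 15988 after MI in PKM2fl/fl. In PKM2-/- the sums were 21374 to 23999 and 10237 to 10985. Of these genes, 2 and 3 were called lower and 0 higher. Of all genes, 11.1% and 14.3% were called lower and 12.4% and 14.5% higher. Abcc9, a subunit of the potassium channel of pericytes that cardiomyocytes also express, fell (log2 fold changes of -1.52 and -2.22), as did Vtn, which encodes vitronectin (-1.09 and -1.17). Pdgfrb, the PDGF receptor of mural cells and fibroblasts, which was picked after its value was seen, rose by 0.94 in both. With the adjusted p alone, 2 of the 8 genes passed higher and 5 lower in PKM2fl/fl, and 1 and 6 in PKM2-/-. Of all genes, 50.1% and 56.8% passed in either direction. Abcc9 and Rgs5, the latter named after its value was seen, held most of the sum after sham. In PKM2fl/fl their means were 8534 and 9631 normalized counts after sham and 3079 and 4902 after MI. By heart, the mural sums after MI were 13356, 15988 and 10862 in PKM2fl/fl and 10985, 10237 and 10348 in PKM2-/-. Their relation to Angpt1 was not tested.

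Cycling genes were called higher for 8 of 8 in both genotypes, with sums of 530 to 1082 normalized counts after sham and 7435 to 10042 after MI in PKM2fl/fl, and 560 to 913 and 8693 to 10767 in PKM2-/-. Of 9 leukocyte genes tested, 6 were called higher in both, with sums of 5218 to 10666 and 20823 to 36723 in PKM2fl/fl and 7218 to 9147 and 28820 to 33302 in PKM2-/-. Of 8 fibroblast genes 3 were called higher in both, and with the adjusted p alone 5 passed higher and 1 lower in both. The 8 genes summed to 20087 to 34060 and 112147 to 122416 in PKM2fl/fl, and to 21465 to 34394 and 91293 to 130708 in PKM2-/-. Beside these 3 lists, 12.4% of all genes were called higher in PKM2fl/fl and 14.5% in PKM2-/-. None of the 3 lists had a gene that passed between genotypes after MI.

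**Figure D4:**
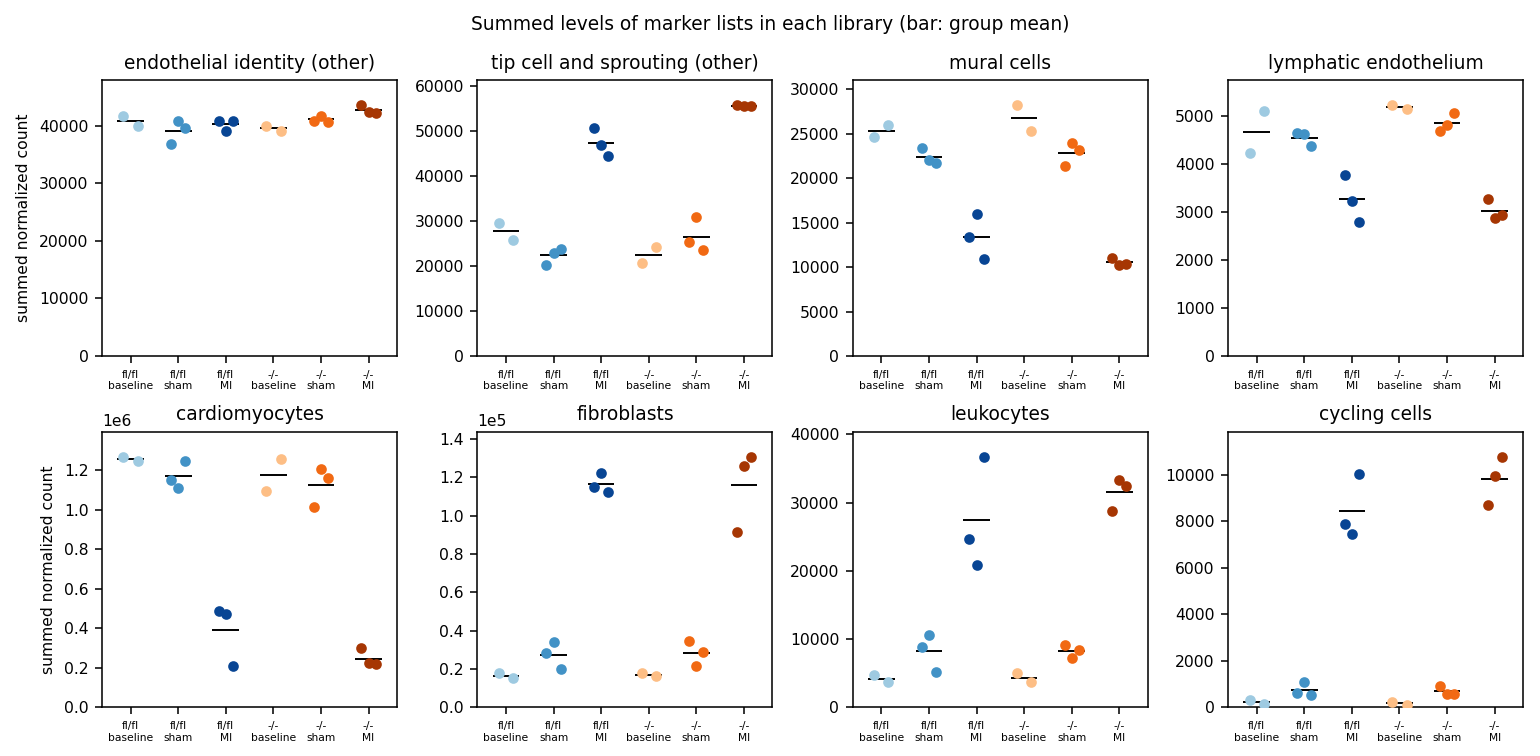
Summed normalized counts of 8 marker lists (vertical axes from 0) in each library, by genotype and treatment. Points are single hearts and bars are group means. The endothelial sum stays between 36803 and 43529, while the cardiomyocyte and mural sums are lower and the sprouting, fibroblast, leukocyte and cycling sums higher in every MI heart than in every sham heart of its genotype. Most of the sprouting sum is Col4a1, Col4a2 and Lama4, and most of the mural sum after sham is Abcc9 and Rgs5.

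For each member the gene with the most similar pattern over the 16 libraries was sought among 20576 genes, as the smallest root mean square difference of centred log2 values. Plvap was closest to Stab1, a scavenger receptor of macrophages and some endothelium (0.196), Apln to Cd276 (0.319), Angpt2 to Mthfs (0.181), and Esm1 to Gzmk (0.0619), which had nearly the same read numbers. The nearest gene was Capzb for Pecam1 (0.0711), Peak1os for Cdh5 (0.109), Atp6v0a2 for Tie1 (0.0822), Gk for Tek (0.0452), 4930512H18Rik for Angpt1 (0.275) and Gm13713 for Aplnr (0.422). The members' own spread over the libraries was 0.169 for Pecam1, 0.173 for Tie1 and 0.209 for Tek, against 0.818 to 1.36 for Angpt1, Apln, Aplnr, Plvap and Esm1.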

How the data were processed

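RNA was sequenced from left ventricles of 16 male mice, in 6 groups of genotype and treatment read from the sample labels. The authors depleted rRNA from RNA with an integrity number of at least 8, mapped paired-end reads with HISAT2 on mm10, obtained counts for gene models from featureCounts, and scaled these by DESeq2 size factors. The deposited signal is this normalized count per gene and library. How the counting treated strand and multi-mapped reads is not given in the sources used here. The table also holds the authors' mean over libraries and their baseline log2 fold change with its standard error, statistic and p-values, which were not used.

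The values of each library were whole multiples of 1 step, so reads were recovered by division (100% whole within 0.05 reads). Since the deposited values are normalized, limma-trend (limma 3.58.1, R 4.3.3) was fitted to log2(value + 1) over all 16 libraries in 6 groups, for 20576 genes with a mean of at least 10, with Benjamini-Hochberg adjustment. The log2(value + 1) scale understates changes of low genes. Called genes had an adjusted p below 0.05 and at least a 2-fold change. Differences within a library between members were tested by exact two-sided permutation within genotype. The 10 genes and the lists of other genes were chosen with earlier results of these data known. Counts beside the shares of all genes therefore do not test the lists. Named are the 10 genes, the nearest gene to each, at most 3 genes per list with the largest mean change among those called in both genotypes, Pkm and CT010467.1. A list gene that the rule names is not reported here. For the cardiomyocyte, fibroblast, leukocyte and cycling lists counts and sums are given.

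Alternatives were TMM scaling, total read scaling, array weights, a pseudocount of 0.1, all genes without the minimum mean, the replicate number as a block, fits of only the groups compared, limma-voom, edgeR 4.0.16 and DESeq2 1.42.0 on recovered reads, the adjusted p alone, and each library left out. Total reads without 4 rRNA-related loci (CT010467.1, mt-Rnr1, mt-Rnr2 and Lars2) were added after seeing the data. On simulated data for MI against sham in PKM2fl/fl (19961 genes), 99% of the 4-fold and 42% of the 2-fold changes passed. Of the unchanged genes, 6 passed, and the fold was not part of this count. The simulation gave all genes and groups the same dispersion, which real hearts need not share. It changed 200 of the 19961 genes, whereas 50.1% of all genes passed in the real comparison. Its shares need not hold there. The limma-trend p-values set a difference against the spread between hearts within groups. That spread was pooled per gene over all 6 groups and drawn toward a trend over all genes. The permutation p-values are the share of label arrangements with a difference at least as large. All pairs of libraries of a group differed beyond sampling noise. Sequences and positions come from RefSeq (GRCm38.p6), and exon lengths from GENCODE M39 on GRCm39.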

Additional observations from a re-analysis of the deposited data

How the results depend on the processing

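The calls of Apln, Aplnr, Angpt2, Plvap and Esm1 with MI held under all 17 alternatives in each genotype, Angpt1 in PKM2-/- under 16 (log2 -0.99 under total read scaling). Among members called, MI against sham in PKM2fl/fl gave 9 with the adjusted p alone and 5 to 6 with 1 library left out, and PKM2-/- gave 6 throughout the latter. After MI between genotypes the count was 0 under total read scaling, 0 in a fit of only the groups compared and 0 to 1 with 1 library left out, and sham against baseline in PKM2-/- gave 0 with limma-voom, 2 with the adjusted p alone and 0 to 1 with 1 library left out. The causes were not tested.

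Directions that turned were all of values that had not passed, apart from Tek in PKM2-/-. With MI in PKM2-/-, the log2 difference of Tie1 was 0.35 under total read scaling and 0.19 without rRNA loci, and that of Tek 0.21 and 0.048. After MI between genotypes, Tie1 was -0.021 with array weights and Tek 0.19 under total read scaling, and after sham Pecam1 was -0.018 under total read scaling. For the difference of the MI effect between genotypes, total read scaling gave 0.47 for Pecam1, 0.67 for Cdh5, 0.69 for Tie1, 0.67 for Tek and 0.042 for Angpt1, totals without rRNA loci gave 0.0096, 0.21, 0.22 and 0.20 for the first 4, and TMM scaling gave 0.019 for Cdh5, 0.034 for Tie1 and 0.017 for Tek. Total read scaling moved the median log2 difference of all genes by 0.68 in that comparison, 0.52 for MI in PKM2-/-, 0.36 after MI, -0.33 after sham and -0.59 at baseline. With 1 library left out, the difference of the MI effect ranged from -0.085 to 0.063 for Cdh5, -0.12 to 0.090 for Tie1 and -0.099 to 0.034 for Tek, MI in PKM2-/- from -0.013 to 0.058 for Pecam1, and the genotype difference after MI from -0.020 to 0.19 for Tie1.

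The permutation p of the Tie1/Tek ratio ranged from 0.02 to 0.155 and that of Apln/Aplnr from 0.03 to 0.305 with 1 heart left out, for differences of 0.081 to 0.17 and 0.35 to 0.79. With the replicate number as a block, the members called were 5 and 6 with MI, 1 after MI and 1 for sham against baseline in PKM2-/-, as without it. Same-numbered hearts of different groups correlated at -0.196 to 0.126 in their deviations from group means (36 pairs, 1 above 0.1). Hearts of other numbers correlated at -0.20 to 0.196 (70 pairs, 7 above 0.1). With 2 or 3 hearts a group, these correlations cannot show whether the numbers pair any hearts. In the simulated data, with 3 hearts in each group compared, 42% of the 2-fold changes passed. Changes of this size may therefore be missed with 2 or 3 hearts a group.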

Other observations

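Genes of other endothelial beds gave values of their own. Of 5 lymphatic endothelial genes tested, 1 was called lower with MI in both genotypes, against 11.1% and 14.3% of all genes. This was Prox1, a transcription factor of lymphatic endothelium that cardiomyocytes also express, which fell, with log2 fold changes of -1.16 in PKM2fl/fl (1985 ± 136 to 935 ± 346 normalized counts, SD, n = 3) and -2.03 in PKM2-/- (1905 ± 137 to 467 ± 32.1). After MI, Prox1 was also lower in PKM2-/- than in PKM2fl/fl hearts, with a log2 difference of -0.92 (SE 0.21, limma-trend adjusted p = 0.049), below 2-fold. The summed lymphatic level was 4369 to 4650.1 normalized counts after sham and 2787 to 3767 after MI in PKM2fl/fl, and 4689 to 5056 and 2879 to 3264 in PKM2-/-. Prox1 was the most abundant tested gene in these sums after sham, and its fall made up most of theirs. With the adjusted p alone, 1 lymphatic gene passed higher with MI and 3 lower in both genotypes. Of all genes, 50.1% and 56.8% passed in either direction.

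Of 5 endocardial genes, 1 was called higher and 1 lower in both genotypes, where 12.4% and 14.5% of all genes were called higher and 11.1% and 14.3% lower. The higher one was Plvap itself, and the lower one Cytl1, which encodes a small secreted protein, at 218 ± 24.1 normalized counts after sham and 69.1 ± 39.0 after MI in PKM2fl/fl and at 246 ± 71.0 and 55.9 ± 13.5 in PKM2-/- (log2 fold changes of -1.77 and -2.10, limma-trend adjusted p = 0.00033 and 5.4e-05).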
